A study of Mus musculus with 178 samples.

Results

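Hox genes encode homeodomain transcription factors that assign position along the body axis. In mammals they lie in 4 clusters, HoxA to HoxD, and each gene carries a paralogue number from 1 at the 3′ end of its cluster to 13 at the 5′ end. Low-numbered genes are known for anterior territories and high-numbered genes for posterior territories and the distal limb, and the embryonic pattern is partly kept in adult cells through Polycomb and Trithorax chromatin regulators. Hox proteins bind DNA with cofactors of the Pbx, Meis and Pknox families. All gene symbols made of Hox, a cluster letter from a to d and a number were taken from the deposited count tables: 39 genes of the 24421 gene symbols listed, namely 11 in HoxA, 10 in HoxB, 9 in HoxC and 9 in HoxD.

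The series measured RNA from the tibialis anterior, a muscle of the lower hindlimb, after injection of notexin, a snake-venom toxin that destroys myofibres and is followed by regeneration. It holds 9 tables with 137 wild-type libraries and 41 from mice lacking the chemokine receptor CCR2 (CCR2KO). Undamaged muscle (day 0) and days 1, 2, 3, 4, 5, 6, 7, 10 and 14 after injection form 81 groups of 1 to 6 libraries.

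Sorting gates defined 5 populations. Fibro-adipogenic progenitors (FAPs), the mesenchymal stromal cells of muscle, were negative for CD45 and CD31 and positive for an EGFP reporter at Pdgfra, with 32 wild-type and 18 CCR2KO libraries. Myogenic progenitors (MPs) were CD45-/CD31- and positive for a7 integrin and VCAM, with 16 wild-type and 9 CCR2KO libraries. Endothelial cells (ECs) were CD45-/CD31+, with 31 wild-type and 14 CCR2KO libraries. Pericytes were CD45-/CD31-/Sca1-/NG2+ cells from NG2 DsRed mice, with 10 wild-type libraries. Inflammatory cells were CD45+/CD31-, with 27 wild-type libraries, and whole muscle, called total tissue, gave 21 wild-type libraries. Wild-type FAPs, pericytes and total tissue are labelled as B6, and every FAP library of either genotype carries the EGFP reporter. Levels are given as counts per 1000000 (CPM) of each library's own gene counts, per sample or as the lowest, median and highest library.

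Gene counts per library ran from 1236809 to 37740952, with a median of 13736699, and the 39 Hox genes together received 28 to 11492 of them. By median, each sorted population had the highest sum of its own marker list among the sorted populations. The summed CPM of 11 endothelial markers was 4690 to 19490 in wild-type EC libraries against 33.1 to 478.5 in FAPs. That of 6 leukocyte markers was 4730 to 9023 in inflammatory cells. Among wild-type libraries, leukocyte markers reached 5102 CPM in MPs, FAP markers 68410 in ECs, and pericyte and smooth muscle markers 13980 in MPs. Pericytes had medians of 1509 CPM for MP markers and 1686 for Schwann cell markers, the highest median of the Schwann list. Wild-type Ccr2 in inflammatory cells ran from 84.9 to 669.1 CPM, while 13 of 18 CCR2KO FAP, 5 of 14 CCR2KO EC and 6 of 9 CCR2KO MP libraries had 0 Ccr2 counts. Some libraries stand apart, and counts without them are given with the comparisons. By expression profile, 5 sorted libraries were closer to another population than to their own: the EC day 1 library 3 and EC day 3 library 5 to FAPs, the MP day 2 library 1 and MP day 3 library 1 to inflammatory cells, and the MP day 10 library 1 to pericytes. The pericyte day 3 library 1 was the shallowest, with 1236809 counts, and all 87 of its Hox counts were Hoxa10. Undamaged wild-type FAP libraries 2 and 3 differed from undamaged library 1 in their Hox pattern, as described below.

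The clusters lie at chr6:52155590-52260880 (HoxA, minus strand), chr11:96194316-96368256 (HoxB, plus), chr15:102921103-103036852 (HoxC, plus) and chr2:74668310-74765142 (HoxD, plus) in GRCm38. The promoters of 4 genes that separate the populations are printed below: Hoxb4 and Hoxb8, of the cluster that marked ECs, Hoxa10, high in FAPs, MPs and pericytes, and Hoxd8, high in ECs, FAPs and pericytes and low in MPs. Each runs from 250 bases before the RefSeq start to 50 bases after it, 5′ to 3′ on the gene's strand, in build GRCm38.p6. The Hoxb4 window is chr11:96318017-96318316 (plus), that of Hoxb8 chr11:96281655-96281954 (plus), that of Hoxa10 chr6:52240805-52241104 (minus) and that of Hoxd8 chr2:74704365-74704664 (plus). Hoxa10 has another window at a second start, chr6:52234890-52235189 (minus), with 21 CG dinucleotides, which is not printed. The capitals in Hoxb8, from base 240 of the window, mark a match to TGATNNAT, the core bound by Pbx and Hox proteins together. The match is on the strand opposite to the one printed.
Hoxb4: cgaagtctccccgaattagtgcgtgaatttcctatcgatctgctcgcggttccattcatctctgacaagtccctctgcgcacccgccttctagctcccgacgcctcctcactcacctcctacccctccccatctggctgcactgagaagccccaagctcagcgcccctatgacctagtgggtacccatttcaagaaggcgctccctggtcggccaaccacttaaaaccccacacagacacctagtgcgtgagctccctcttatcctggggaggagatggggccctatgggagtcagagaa
Hoxb8: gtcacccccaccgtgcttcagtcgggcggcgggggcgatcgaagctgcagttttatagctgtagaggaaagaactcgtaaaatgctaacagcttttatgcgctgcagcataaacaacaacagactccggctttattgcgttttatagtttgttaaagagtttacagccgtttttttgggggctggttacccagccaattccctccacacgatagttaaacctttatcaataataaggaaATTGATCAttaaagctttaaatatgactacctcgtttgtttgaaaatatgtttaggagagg
Hoxa10: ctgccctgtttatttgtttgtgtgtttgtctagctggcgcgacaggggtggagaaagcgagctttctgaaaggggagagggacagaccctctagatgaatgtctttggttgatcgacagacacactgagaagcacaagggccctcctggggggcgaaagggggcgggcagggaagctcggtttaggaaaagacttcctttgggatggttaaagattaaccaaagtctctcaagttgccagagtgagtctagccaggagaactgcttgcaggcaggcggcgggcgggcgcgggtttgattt
Hoxd8: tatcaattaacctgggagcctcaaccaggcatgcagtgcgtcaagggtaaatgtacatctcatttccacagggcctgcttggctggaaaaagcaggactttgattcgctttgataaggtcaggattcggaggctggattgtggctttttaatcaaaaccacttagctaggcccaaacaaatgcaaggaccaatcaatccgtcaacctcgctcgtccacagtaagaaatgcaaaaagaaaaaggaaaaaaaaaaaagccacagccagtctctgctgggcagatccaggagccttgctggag
These windows held 14, 13, 12 and 6 CG dinucleotides, in the order printed. Of the 39 genes, 22 had an entry (24 windows), with a median of 14.5 CG dinucleotides and a range of 4 to 45, against a median of 7 over all 32851 promoter windows. TGATNNAT on either strand was in 4 of the 24 windows (Hoxd11, Hoxa2, Hoxb8 and Hoxb1) and in 8.85% of all windows. TAATNNAT, a homeodomain core, was in 2 of the 24 (Hoxd11 and Hoxd8) and in 8.82% of all, and TTTATNG, a posterior Hox core, was in 2 (Hoxd4 and Hoxb8) and in 10.91% of all.

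Each mesenchymal, myogenic and vascular population had its own combination of Hox genes. At a median of 5 CPM or more, 15 of the 39 genes were found in wild-type ECs, 10 in MPs, 10 in pericytes, 8 in FAPs, 8 in total tissue and none in inflammatory cells. The HoxB cluster separated ECs from the rest, with 8 of its 10 genes at that level in ECs, 1 in pericytes and none in FAPs or MPs. HoxC showed the reverse, with 5 of 9 genes at that level in MPs, 3 in FAPs, 3 in pericytes and none in ECs. Differences between bulk samples cannot tell fewer expressing cells from less RNA per cell.

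**Figure D1:**
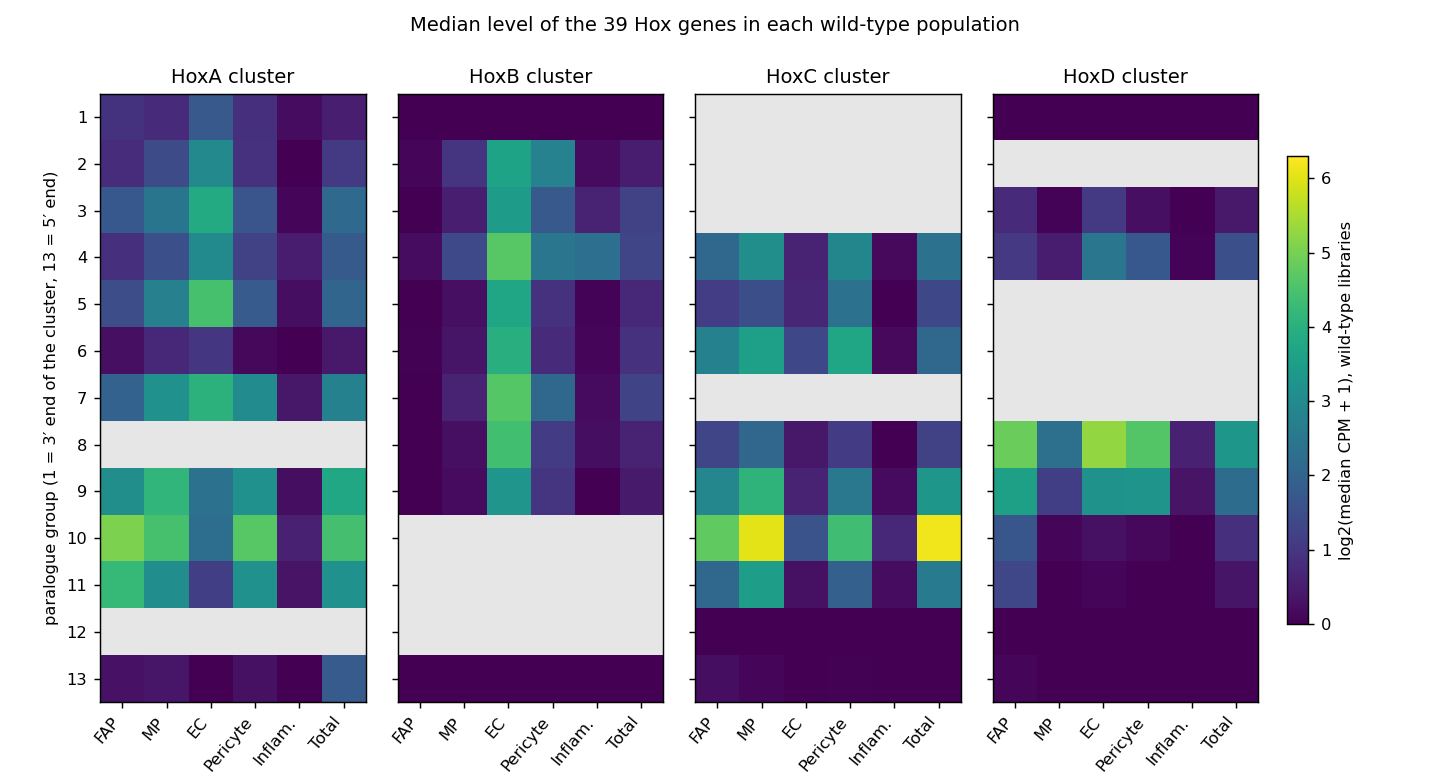
Median level of each Hox gene in 6 wild-type populations, as log2(median CPM + 1), with one panel per cluster, paralogue group 1 to 13 from top to bottom and populations across; grey marks a paralogue group with no gene in that cluster. HoxB medians reach 24.4 CPM in ECs and 5.93 in any other population, and Hoxc10 stands out in MPs and total tissue.

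The sums over each cluster showed the same contrasts. Summed HoxB CPM in ECs ran from 36 to 344.7 with a median of 130.8, and in FAPs from 0 to 20.1 with a median of 0.677. Summed HoxC CPM ran from 29.6 to 209.4 with a median of 130.3 in MPs, from 28.2 to 134.7 with a median of 49.96 in FAPs, and from 1.51 to 59.1 with a median of 6.05 in ECs. HoxD had a median of 49.97 CPM in ECs and 44.3 in FAPs but 6.23 in MPs, where it ran from 0 to 29.6. HoxA was more even, with medians of 79.3, 67.3, 68.3 and 58.6 CPM in ECs, FAPs, MPs and pericytes. In inflammatory cells all 39 genes together had a median of 10.4 CPM, against 285.5 in ECs, 225.6 in MPs, 166 in FAPs and 162.7 in pericytes.

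**Figure D2:**
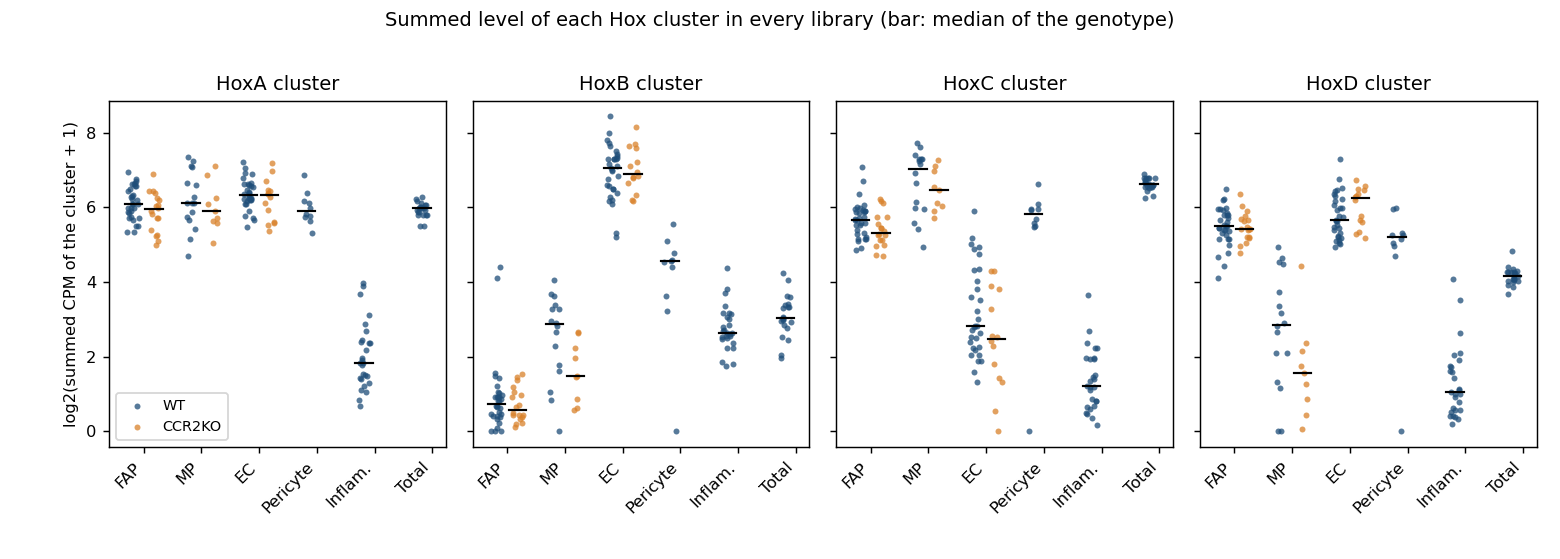
Summed CPM of each Hox cluster in every library, as log2(sum + 1), by population; wild-type libraries are blue, CCR2KO libraries orange, and the bar is the median. HoxB medians are 130.8 CPM in wild-type ECs and 0.677 in wild-type FAPs.

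The position of the expressed genes within the clusters also differed. Genes of paralogue groups 9 to 13 took 66.2% of all Hox counts in the median wild-type FAP library (52.25 to 78.18%) and 66.4% in MPs (53.75 to 78.37%). In ECs they took 12.9% (7.19 to 42.83%), in pericytes 48.6% (42.91 to 100%), in inflammatory cells 23.1% (8.696 to 57.62%) and in total tissue 73.0% (65.96 to 84.56%). FAPs and MPs did not overlap with ECs on this share. Groups 5 to 8 gave the median EC library 54.6% of its Hox counts and groups 1 to 4 31.6%, against 25.7% and 7.07% in FAPs. The pericyte value of 100% is the day 3 library 1, whose Hox counts were Hoxa10 alone. The EC values above 40% were 42%, 42.8% and 41.1% in the day 1 library 3, the day 3 library 5 and the day 7 library 2. In the same libraries, the summed CPM of 10 FAP markers was 20960, 68410 and 31290; the part of this in the share was not tested. Weighting each gene by its length left the median shares at 66.12, 66.57, 11.96, 50.75, 23.38 and 75.07% for FAPs, MPs, ECs, pericytes, inflammatory cells and total tissue.

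**Figure D3:**
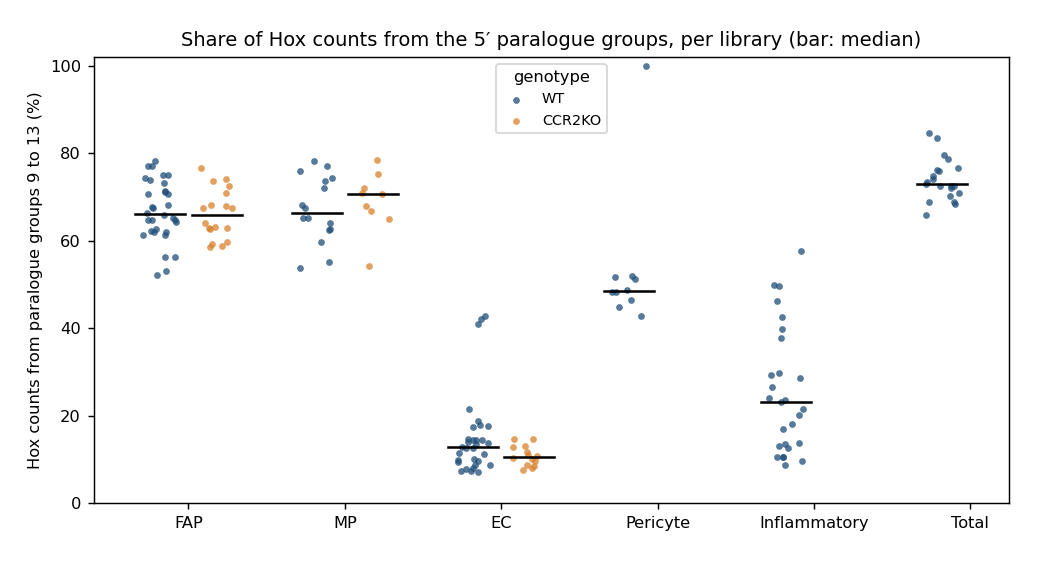
Percentage of Hox counts that came from paralogue groups 9 to 13 in every library, by population; wild-type libraries are blue, CCR2KO libraries orange, and the bar is the median. Wild-type FAP and MP libraries sit above 52% and wild-type EC libraries below 43%.

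For the HoxB genes from Hoxb2 to Hoxb9, ECs had the highest levels of the series. Hoxb8, a mid-cluster gene, ran from 4.49 to 55.8 CPM with a median of 19.9 in the 31 wild-type EC libraries, from 0 to 0.327 in FAPs with a median of 0, and from 0 to 1.42 in MPs with a median of 0.2. Hoxb7 had medians of 24.1, 0, 0.535 and 3.32 CPM in ECs, FAPs, MPs and pericytes, and Hoxb4, an anterior gene also known in blood progenitors, had 24.4, 0.159, 1.64 and 4.51. In these wild-type libraries the lowest EC value of Hoxb7 (5.29 CPM) and of Hoxb8 was above the highest FAP and MP values. The other EC genes of the cluster had medians of 11.7 (Hoxb2), 10.1 (Hoxb3), 12.1 (Hoxb5), 14.4 (Hoxb6) and 8.81 CPM (Hoxb9). Hoxb1 and Hoxb13 had 0 counts in 172 and 171 libraries of the series, with 14 and 15 counts in all.

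Among the HoxA genes, the low-numbered ones followed ECs and the high-numbered ones did not. Hoxa5 had a median of 21 CPM in ECs (2.58 to 46.9) against 1.79 in FAPs (0 to 7.06) and 5.68 in MPs (0.599 to 22.5), and Hoxa3 had medians of 13.4, 2.32 and 4.45 in the same order. Hoxa10, a posterior gene of the proximal limb, ran from 14 to 68.5 CPM with a median of 32.2 in FAPs and from 0.561 to 24.1 with a median of 3.81 in ECs. Its medians were 21.2 in MPs and 24.1 in pericytes. Hoxa11, a gene of the forearm and shank, had medians of 17.5 CPM in FAPs, 7.55 in MPs, 8.06 in pericytes and 1.26 in ECs. Hoxa13, which marks the hand and foot, had a median of 2.52 CPM in total tissue (1.3 to 4).

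HoxC was led by Hoxc10, a hindlimb gene of paralogue group 10. It ran from 15.4 to 103 CPM in MPs with a median of 64.5, from 16 to 45.9 in FAPs with a median of 26.3, from 0 to 33.8 in pericytes with a median of 19.5 and from 0.393 to 28.8 in ECs with a median of 2.07. Total tissue, at 49.7 to 97.8 CPM with a median of 70.9, lay within the range of MPs. Hoxc9 and Hoxc11 also had their highest sorted-cell median in MPs, at 16.2 and 10.5 CPM. Hoxc6 had medians of 12.2 CPM in pericytes, 10.8 in MPs, 5.87 in FAPs and 1.56 in ECs.

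HoxD was represented by Hoxd8, Hoxd9 and, in ECs, Hoxd4. Hoxd8 ran from 16.7 to 128 CPM with a median of 37.7 in ECs, from 9.84 to 55.9 with a median of 28.1 in FAPs and from 0 to 17.5 with a median of 3.98 in MPs. Hoxd9 had medians of 8.19, 10.9 and 1.24 CPM in the same order. Hoxd10 and Hoxd11, genes of the posterior limb, were low, with FAP medians of 2.2 and 1.55 CPM. Hoxd1, Hoxd12 and Hoxd13 had 0 counts in 151, 176 and 131 libraries of the series, and Hoxc12 and Hoxc13 in 153 and 108.

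Levels of different genes were compared per kilobase of exon, counting all annotated exon bases of a gene. For Hoxd8 these are 2744 bases, against 557 in its principal transcript, so its rank depends on the length used. On that scale Hoxc10 was the highest Hox gene in MPs (33.8 CPM per kilobase), total tissue (37.2), FAPs (13.8) and pericytes (10.2), while Hoxb7 (15.6) and Hoxd8 (13.7) led in ECs. In FAPs, Hoxd8 followed at 10.3 and Hoxa10 at 9.86 CPM per kilobase. In MPs the next genes, Hoxc9 and Hoxa10, were at 6.67 and 6.50. Inflammatory cells had Hoxb4 at 1.54 CPM per kilobase. Reads cannot be split with certainty between neighbours here, since 9 of the 39 genes share exon positions with another gene on the same strand and 10 overlap a gene on the opposite strand, and no label or header states the strand setting of the counting.

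The populations were compared by the edgeR quasi-likelihood test in 86 wild-type libraries from days 0, 1, 2, 3, 5 and 10 (23 FAP, 12 MP, 22 EC, 10 pericyte and 19 inflammatory), with 1 mean for each population and day and the difference averaged over days. Of the 39 Hox genes, 34 passed the filter on low counts. Hox genes with a population and day group at 0 counts on both sides of a comparison all had p over 0.9. These genes, counted below as not called, numbered 5, 1 and 4 for FAPs against MPs, ECs and pericytes. They numbered 4 and 8 for MPs against ECs and pericytes, and 4 for ECs against pericytes. Such genes were not counted among all genes tested. The comparisons share libraries. A gene is called where the Benjamini-Hochberg adjusted p over the 17134 genes tested was under 0.05.

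FAPs and ECs differed at 30 of the 34 genes, 14 higher and 16 lower in FAPs, against 46.6% of all genes called (24.6% higher and 22% lower). The split followed position and cluster. All 7 tested HoxA genes of groups 1 to 8 were lower in FAPs and all 4 of groups 9 to 13 were higher. All 8 tested HoxB genes were lower, while 7 of 8 HoxC genes were higher and none was lower. In HoxD, 3 of the 4 genes of groups 9 to 13 were higher and 1 of the 3 genes of groups 1 to 8 was lower. The median log2 fold change was -0.63 over the 34 genes and 0.03 over all genes.

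In the 22 EC libraries of this fit Hoxb8 ran from 4.49 to 55.8 CPM and in the 23 FAP libraries from 0 to 0.193, with 13 at 0. The groups did not overlap, and Hoxb8 was lower in FAPs with a fitted log2 difference of -8.79 ± 0.66 (SE; adjusted p = 3.06e-17). Where many libraries are at 0 the fitted size depends on the prior count. Hoxb7 had a log2 fold change of -8.35 ± 0.57 (adjusted p = 4.81e-19) and Hoxb4 of -7.17 ± 0.57 (adjusted p = 1.41e-16), also without overlap. In the other direction, Hoxc10 ran from 16 to 45.9 CPM in FAPs and from 0.393 to 14.8 in ECs, with a log2 fold change of 2.96 ± 0.39 (adjusted p = 2.1e-09) and no overlap. Hoxa10 was higher in FAPs by 2.98 ± 0.34 (adjusted p = 7.87e-11) and Hoxa11 by 3.35 ± 0.52 (adjusted p = 1.65e-07), each with some overlap. Hoxd8 was not called, at -0.30 ± 0.27 (adjusted p = 0.419).

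MPs and ECs differed at 29 of the 34 genes, 9 higher and 20 lower in MPs, against 42.9% of all genes called (19.6% higher and 23.3% lower). HoxB again was lower throughout, at 8 of 8 tested genes, and Hoxb8 had a log2 fold change of -7.44 ± 0.76 (adjusted p = 1.97e-12). Unlike in FAPs, 5 of 7 tested HoxD genes were lower than in ECs and none was higher. In the libraries of the fit, Hoxd8 ran from 0 to 17.5 CPM in MPs, with 3 libraries at 0, and from 19.3 to 71.0 in ECs, without overlap, and its log2 fold change was -4.62 ± 0.48 (adjusted p = 3.14e-12). Among HoxC genes, Hoxc11 was higher in MPs by 4.67 ± 0.60 (adjusted p = 1.46e-09), Hoxc9 by 3.39 ± 0.48 (adjusted p = 1.7e-08) and Hoxc10 by 3.30 ± 0.41 (adjusted p = 6.25e-10). Hoxc10 ran from 15.4 to 103 CPM in the MPs of the fit and from 0.393 to 14.8 in its ECs, without overlap.

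**Figure D4:**
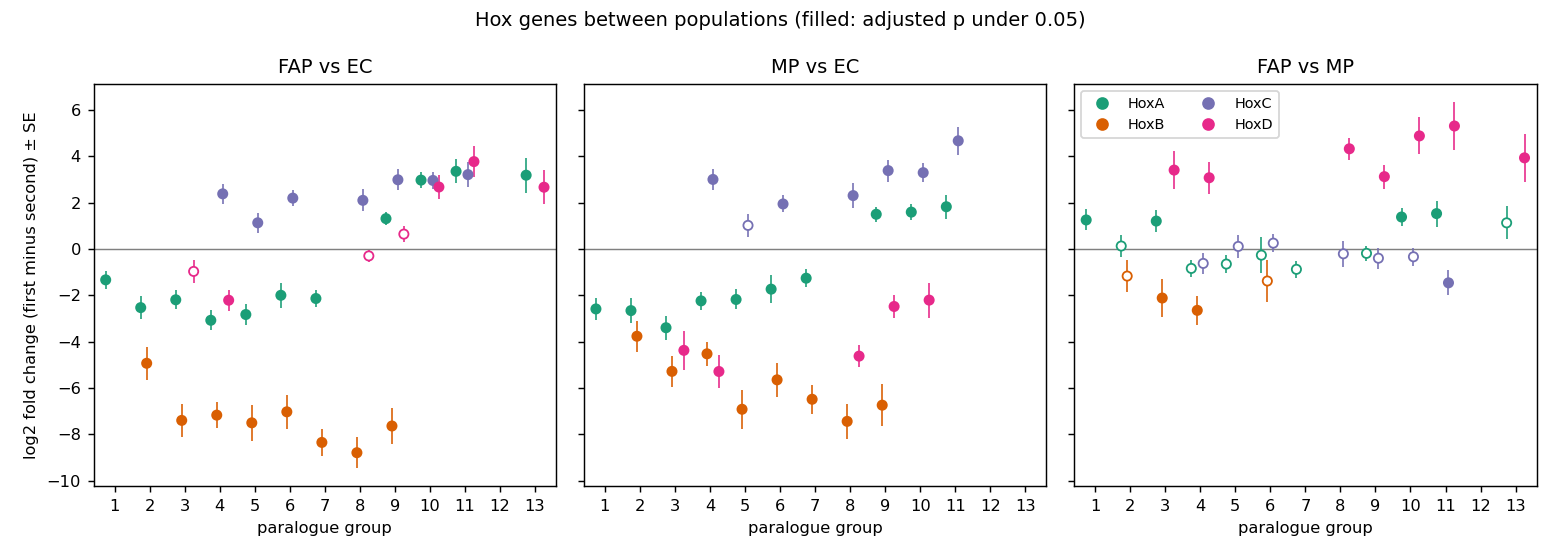
Fitted log2 fold change ± SE of each Hox gene by paralogue group for FAPs against ECs, MPs against ECs and FAPs against MPs, coloured by cluster; filled points have an adjusted p under 0.05, and 1, 4 and 5 genes with an SE over 10 are not drawn. In FAPs against ECs, HoxA points lie below 0 in groups 1 to 8 and above 0 in groups 9 to 13.

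FAPs and MPs, which had like shares of groups 9 to 13, differed at 14 of the 34 genes, 11 higher and 3 lower in FAPs, against 41.2% of all genes called (23.6% higher and 17.5% lower), so the share of Hox genes called was near the background. With population and day as added terms the split was 7 higher and 9 lower. HoxD carried the largest block, with all 7 tested genes higher in FAPs. Hoxd8 ran from 9.84 to 43.4 CPM in FAPs and from 0 to 17.5 in MPs, which overlap, with a log2 fold change of 4.33 ± 0.48 (adjusted p = 5.6e-11), and Hoxd9 had 3.12 ± 0.52 (adjusted p = 1.28e-06). Hoxa10 was higher in FAPs by 1.38 ± 0.38 (adjusted p = 0.00235) and Hoxc11 lower, at -1.46 ± 0.54 (adjusted p = 0.0243). With population and day as added terms in the edgeR fit, Hoxa10 lost its call (0.90, adjusted p = 0.0504). Without undamaged FAP libraries 2 and 3 the fitted Hoxc11 change was -1.42. Hoxc10 was not called, at -0.34 ± 0.40 (adjusted p = 0.602). Of the genes called, Hoxa3 had a fitted change of 1.21 but a ratio of mean CPM of the other sign (2.78 in FAPs, 4.80 in MPs).

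Pericytes lay between FAPs and ECs in their share of groups 9 to 13. FAPs and pericytes differed at 9 genes, 4 higher and 5 lower in FAPs, against 36.1% of all genes called (22.7% higher and 13.4% lower), so Hox genes were called no more often than other genes, and the split was 2 higher and 9 lower with added terms. Hoxb2 ran from 0 to 16.2 CPM with a median of 5.93 in pericytes and had a median of 0.167 in the FAPs of the fit, a log2 fold change of -3.90 ± 0.68 (adjusted p = 4.35e-06). Without the pericyte day 3 library 2 the fitted Hoxb2 change was -2.44. In that fit day 3 rests on library 1, which has 0 counts of every Hox gene but Hoxa10. It therefore cannot show whether a call depends on library 2. ECs and pericytes differed at 24 genes, 17 higher and 7 lower in ECs, against 38.8% of all genes called (22.8% higher and 16.1% lower). All 7 tested HoxA genes of groups 1 to 8 and 7 of 8 HoxB genes were higher in ECs, while 5 of 8 HoxC genes were lower. Without the pericyte day 3 library 2 the fitted changes of Hoxc4, Hoxc6 and Hoxc10 were -1.56, -1.08 and -0.73, with the same limit. Hoxb8 ran from 0 to 2.33 CPM in pericytes and did not overlap with ECs, with a log2 fold change of 5.29 ± 0.68 (adjusted p = 2.02e-09). MPs and pericytes differed at 11 genes, 3 higher and 8 lower in MPs, against 35.7% of all genes called (18.1% higher and 17.6% lower), also near the background. Of the 34 genes tested, 8 had a group at 0 counts on both sides and p over 0.9, which limits this reading. Hoxd8 was lower in MPs, with -3.68 ± 0.48 (adjusted p = 7.68e-09). This comparison depended on the libraries and the fit. With MPs and pericytes alone in the fit the count was 4 (1 higher and 3 lower). With the preparation code as a block, in 73 of the 86 libraries, it was 5 (0 higher and 5 lower). Without the pericyte day 3 library 2 the fitted Hoxd8 change was -2.23, again with day 3 resting on library 1.

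Inflammatory cells expressed little Hox RNA other than Hoxb4, which ran from 1.36 to 8.86 CPM with a median of 3.95 over 27 libraries and was not at 0 in any of the 19 inflammatory libraries of the fit. Against the mean of the other 4 populations, 15 of the 34 genes were called, 1 higher and 14 lower, against 47.7% of all genes called (26.6% higher and 21.1% lower), a share near the background. With population and day as added terms 31 were called, 1 higher and 30 lower, against 67.4%. Hoxa10 ran from 0 to 1.89 CPM in the inflammatory libraries of the fit, a log2 fold change of -4.98 ± 0.52 (adjusted p = 8.08e-13), and Hoxc10 had -4.77 ± 0.56 (adjusted p = 4.46e-11). Hoxb4 had a fitted change of 1.07 ± 0.30 (adjusted p = 0.00193) against the mean of the other populations' log levels, while its mean CPM was 3.78 against 10.3. In 17 of the 34 genes p was over 0.9, and 9 of them had a group with 0 counts on both sides. The inflammatory day 7 library 2, at 54.1 summed Hox CPM the highest of the 27, had 11120 CPM of FAP markers, and their part in its Hox sum was not tested. Without the 5 libraries closer to another population, the called Hox genes numbered 14 for FAPs against MPs, 30 for FAPs against ECs, 10 for FAPs against pericytes, 27 for MPs against ECs, 11 for MPs against pericytes, 25 for ECs against pericytes and 12 for inflammatory cells. Without undamaged FAP libraries 2 and 3, they numbered 15, 29 and 8 for FAPs against MPs, ECs and pericytes. Without the shallow pericyte day 3 library 1, they numbered 9, 11 and 25 for FAPs, MPs and ECs against pericytes.

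Over time, the Hox genes called in MPs between undamaged muscle and days 1 to 3 were all lower after injury. Of 33 genes tested, 10 were called lower and none higher, against 39% of all genes called (17.9% higher and 21% lower), so Hox genes were called no more often than other genes. Their median log2 fold change was -2.23, against -0.16 over all genes. Hoxa10 was 57.4, 43.1 and 68.2 CPM in the 3 undamaged libraries, 13.2 and 5.38 at day 1, 4.89 and 13.0 at day 2, and 3.21 and 6.28 at day 3. All 6 injured libraries lay below all 3 undamaged ones, with a log2 fold change of -2.85 ± 0.39 (adjusted p = 0.000348). Hoxc10 fell from 79.1, 85.3 and 103 CPM to 15.4 to 32.3, a log2 fold change of -1.89 ± 0.27 (adjusted p = 0.00042), again without overlap. Hoxd8 fell from 17.2, 17.5 and 14.8 CPM to 0 to 8.54, with 3 of the 6 libraries at 0, and had -4.78 ± 1.21 (adjusted p = 0.0107). Of the 10 genes called, 9 did not overlap between the groups of 3 and 6 libraries. The share without overlap among all genes was not counted, so this does not set Hox genes apart from other genes. The other genes called were Hoxa3, Hoxa5, Hoxa9, Hoxc6, Hoxc8, Hoxc9 and Hoxd4, and none of the 8 HoxB genes tested was called. The codes of all 3 undamaged libraries hold R52, whose meaning is not given, and most of those of days 1 to 3 do not. With an R52 term in the edgeR fit, Hoxc8 (-2.50, adjusted p = 0.0867) and Hoxa9 (-1.02, adjusted p = 0.146) lost their calls. Hoxa9 lost its call in 6 of the fits that left out 1 library. The leukocyte markers summed to 5102 and 4145 CPM in the MP day 2 library 1 and day 3 library 1, against 15.9 to 800.1 in the other wild-type MP libraries, and without those libraries and the day 10 library 1 the call count was 15, 1 higher and 14 lower.

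From days 1 to 3 to day 10, 6 of 33 Hox genes rose in MPs and none fell, against 19.3% of all genes called (13% higher and 6.29% lower). Hoxa10 was 38.9 and 44.7 CPM in the 2 day 10 libraries, above all 6 libraries of days 1 to 3, with a log2 fold change of 2.41 ± 0.43 (adjusted p = 0.00501). Hoxc10 was 62.6 and 70.4 CPM, with 1.46 ± 0.30 (adjusted p = 0.00956). Hoxa3, Hoxa5, Hoxa9 and Hoxc6 were the other genes called. All 6 genes called were without overlap between the groups of 2 and 6 libraries. As the share without overlap among all genes was not counted, this too does not set Hox genes apart. Single libraries of day 4 and day 5 had 14.8 and 18.1 CPM of Hoxa10, and those of day 6 had 28.9 and 24.4. The day 10 library 1 is the one closest to pericytes and had 46370 CPM of myofibre markers, and leaving out the other day 10 library left 2 genes called. Without the libraries closer to another population the count was 9. Hoxc10 lost its call without day 10 library 1 (1.31, adjusted p = 0.0554) and without library 2 (1.34, adjusted p = 0.0575).

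**Figure D5:**
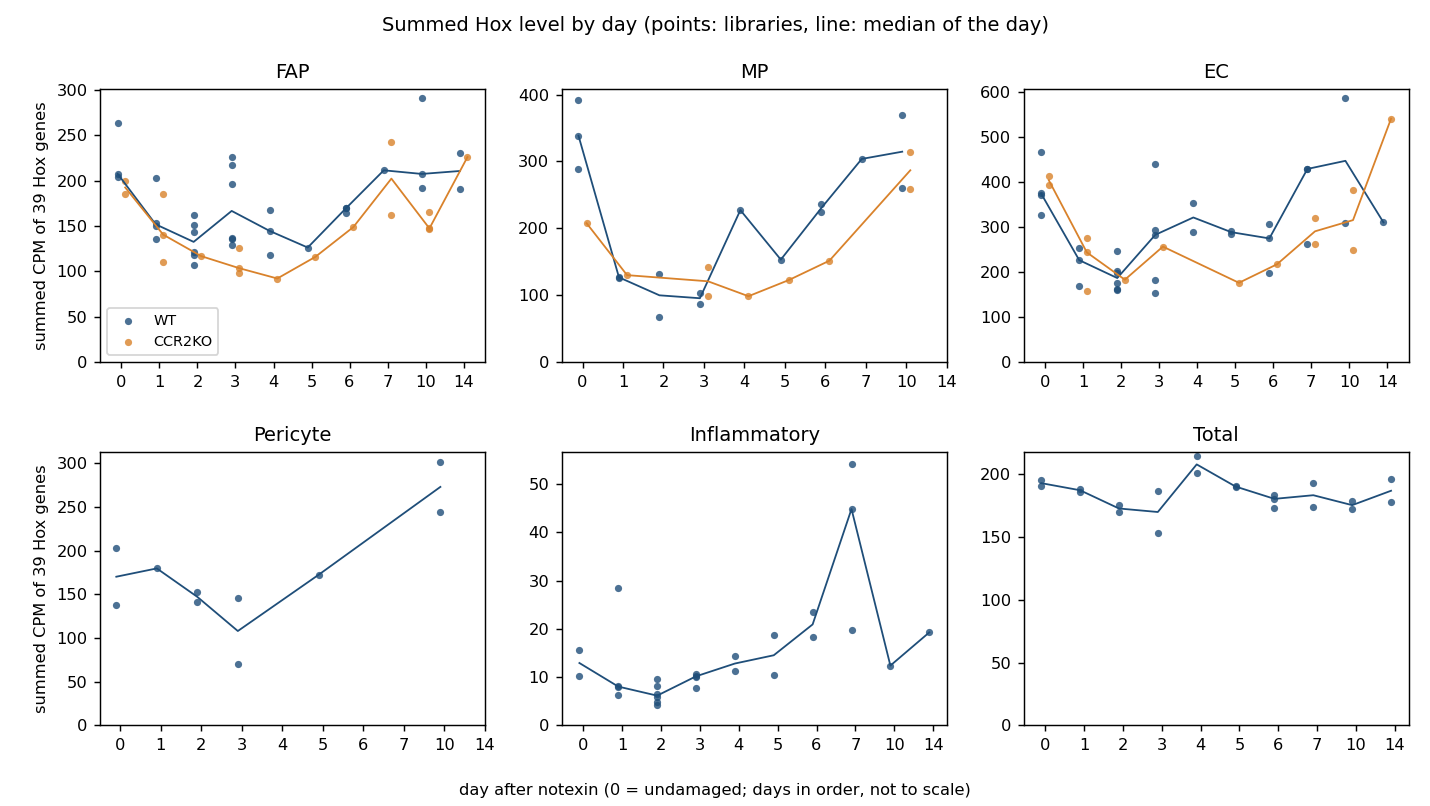
Summed CPM of the 39 Hox genes in every library by day, one panel per population, where 0 is undamaged muscle and days are in order, not to scale. Wild-type libraries are blue, CCR2KO libraries orange, with a line for each genotype at the median of the day. Wild-type MP libraries are at 288.3 to 392.7 CPM when undamaged and at 67.7 to 131.7 on days 1 to 3.

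In FAPs 13 of 33 genes were called between undamaged muscle and days 1 to 3, 1 higher and 12 lower, against 27.9% of all genes called (13.2% higher and 14.8% lower), but this rested on 2 libraries. Hoxc8 was 1.73, 19.5 and 13.8 CPM in undamaged wild-type libraries 1, 2 and 3 and ran from 0.258 to 2.96 on days 1 to 3, with a log2 fold change of -3.06 ± 0.51 (adjusted p = 5.25e-05). Undamaged libraries 2 and 3, whose codes hold R52 (library 1 has another), were high and library 1 lay within the range of days 1 to 3. Their summed HoxB was 20.1 and 16.3 CPM against 1.33 in library 1 and 1.26 and 1.90 in the undamaged CCR2KO libraries, and their Hoxd8 was 12.8 and 12.2 CPM against 28.9, and 44.3 and 23.4. Tbx5, a forelimb gene, was 5.71, 9.56 and 15.2 CPM in the 3 wild-type libraries and 24.7 and 5.40 in the CCR2KO ones, and Pitx1, a hindlimb gene, was 12.4, 7.60 and 4.97 and 7.93 and 11.3. Without libraries 2 and 3 only 1 Hox gene was called. At day 10, Hoxd4 and Hoxa9 were the 2 genes higher than on days 1 to 3, against 21.8% of all genes called (12.7% higher and 9.03% lower), and Hoxa9 ran from 17.1 to 26.3 CPM in 3 libraries against 3.12 to 19 in 16, with a log2 fold change of 1.39 ± 0.36 (adjusted p = 0.00667). Without day 10 library 3, Hoxa9 lost its call (1.11, adjusted p = 0.0873) and 1 gene was called, while DESeq2 called 5 on all libraries.

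In ECs 4 of 32 genes were called, all lower on days 1 to 3 than in undamaged muscle, against 10% of all genes called (5.19% higher and 4.81% lower), again near the background. Hoxd4, an anterior HoxD gene, was 10.9, 19.6, 11.6 and 13.8 CPM in undamaged ECs and ran from 1.10 to 17.3 with a median of 3.29 in 14 libraries of days 1 to 3, a log2 fold change of -1.72 ± 0.43 (adjusted p = 0.0128). The groups overlapped. Hoxa9 (-1.78 ± 0.44, adjusted p = 0.0116), Hoxb6 (-1.51 ± 0.47, adjusted p = 0.0407) and Hoxd9 (-1.06 ± 0.32, adjusted p = 0.0332) were the others. Leaving out 1 library at a time gave 2 to 9 calls, 2 without undamaged library 1, 3 or 4 or day 1 library 2 and 9 without day 3 library 2. Hoxb6 lost its call in 8 of these fits and Hoxd9 in 4, and without the EC libraries closer to another population 3 genes were called. At day 10 Hoxd4 was 13.9 and 24.7 CPM, the 1 gene called (2.28 ± 0.52, adjusted p = 0.0378), against 0.558% of all genes called (0.545% higher and 0.0128% lower), and this call was lost when any 1 of 11 libraries was left out. The HoxB genes that marked ECs were mostly not called: Hoxb4 had -0.79 ± 0.48 (adjusted p = 0.303).

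In pericytes no Hox gene of 30 was called between undamaged muscle and days 1 to 3 or between those and day 10, against 0.00661% of all genes called in each (0.00661% higher and 0% lower). At an unadjusted p under 0.05 there were 0 and 1 Hox genes. Of the fits that left out 1 library, only the one without day 3 library 2 gave Hox calls. That fit leaves day 3 to the shallow library 1, which has 0 counts of every Hox gene but Hoxa10. Its calls therefore cannot be read as a change over time. Hoxa10 was 10.3 and 26.0 CPM in undamaged pericytes and 57.0 and 32.0 at day 10. In inflammatory cells 1 of 27 genes was called, against 29.6% of all genes called (10.7% higher and 18.9% lower), and it was Hoxb9, which was below 1 CPM in both groups (mean 0.018 and 0.372).

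In total tissue 20 of 30 Hox genes were called on days 1 to 3, 2 higher and 18 lower than in undamaged muscle, against 69.8% of all genes called (35.7% higher and 34.1% lower), so the share was near the background. The libraries of each of these days share 1 preparation code, so day and preparation cannot be told apart and p-values rest on spread within a preparation. Without undamaged library 2 the count was 11. Hoxc10 was 87.0 and 83.4 CPM in undamaged muscle, from 49.7 to 67.3 on days 1 to 3 and 91.7 and 97.8 at day 10. It fell by 1.2 on the log2 scale (SE 0.14, adjusted p = 3.09e-07) and then rose by 1.58 ± 0.13 (adjusted p = 6.7e-09), without overlap at either step. Hoxb4 moved the other way, from 1.33 and 1.26 CPM to 3.31 to 5.08 and back to 0.515 and 0.457, with 0.95 ± 0.26 (adjusted p = 0.00283) and -2.13 ± 0.31 (adjusted p = 5.75e-06). At day 10, 15 of 30 genes were called, 11 higher and 4 lower, against 71.6% of all genes called (33.9% higher and 37.7% lower). For 5 of the 20 and 7 of the 15 genes the ratio of mean CPM had the other sign from the fit, so the direction depended on the scaling. Hoxa10, for example, was fitted 0.60 ± 0.12 higher at day 10 while its CPM was 15.1 and 16.2 at day 10 against 17.4 to 23.4 on days 1 to 3.

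By edgeR, no Hox gene passed the threshold between CCR2KO and wild type in FAPs, ECs or MPs. In FAPs, 0 of 31 genes were called by edgeR against 2.14% of all genes called (1.17% higher and 0.962% lower), with 10 at an unadjusted p under 0.05, and DESeq2 called 2. The 10 were all lower in CCR2KO, and the strongest was Hoxa3, with a median of 1.44 CPM in 18 CCR2KO libraries against 2.32 in 32 wild-type ones (log2 fold change -0.77 ± 0.24, adjusted p = 0.0758). In ECs, 0 of 31 were called against 0.0797% of all genes called (0.0532% higher and 0.0266% lower), with 0 at an unadjusted p under 0.05 and 0 by DESeq2. In MPs, 0 of 29 were called against 0.00683% of all genes called (0.00683% higher and 0% lower), with 6 at an unadjusted p under 0.05, all lower in CCR2KO, and 1 by DESeq2. Hoxd9 led there, at -2.73 ± 0.80 (adjusted p = 0.257). A smaller share of CCR2KO than of wild-type FAP and MP libraries had codes that hold R52, so genotype and code partly go together. The median share of groups 9 to 13 was 65.8% in CCR2KO FAPs, 70.7% in CCR2KO MPs and 10.7% in CCR2KO ECs. Median Hoxc10 was 43.9 CPM in CCR2KO MPs and 21.6 in CCR2KO FAPs, and median Hoxb4 was 21.3 in CCR2KO ECs.

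Of 9 Hox cofactors tested, 6 were higher and 1 lower in FAPs than in ECs (46.6% of all genes called, 24.6% higher), and 4 higher and 1 lower in FAPs than in MPs (41.2% of all genes called, 23.6% higher). Meis3, a homeodomain cofactor, ran from 6.92 to 34.4 CPM with a median of 21.1 in FAPs and from 0.251 to 13.9 with a median of 2.02 in ECs, a log2 fold change of 3.19 ± 0.37. In MPs 4 of 9 cofactors fell on days 1 to 3 and none rose, against 39% of all genes called and 21% lower. The days 1 to 3 group holds the MP day 2 library 1 and day 3 library 1, with 5102 and 4145 CPM of leukocyte markers, whose part in these values was not tested. Meis1 was among the 4 that fell, from 11.5 to 27.3 CPM in undamaged MPs to 1.84 to 6.49, with a log2 fold change of -2.44 ± 0.53 (adjusted p = 0.00434) and no overlap.

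Of 25 other limb-position genes, 15 were higher and 4 lower in FAPs than in ECs, 13 higher and 5 lower in FAPs than in MPs, and none higher and 11 lower in inflammatory cells than in the other populations. Of all genes, 46.6%, 41.2% and 47.7% were called in these comparisons. Tbx4, the hindlimb T-box gene, had medians of 23 CPM in MPs, 8.5 in FAPs, 6.67 in total tissue, 3.43 in pericytes, 0.602 in ECs and 0.187 in inflammatory cells. Tbx3 was the reverse, from 18.6 to 163 CPM with a median of 71 in ECs and from 0.625 to 18 in FAPs, a log2 fold change of -4.09 ± 0.44 in FAPs against ECs (adjusted p = 7.72e-12). Tbx5 fell in FAPs from undamaged muscle to days 1 to 3 by 2.54 on the log2 scale (adjusted p = 0.0011), from 5.71 to 15.2 CPM to 0 to 3.46. Undamaged libraries 2 and 3, which stood apart in their Hox pattern, had 9.56 and 15.2 CPM and library 1 had 5.71. The part of libraries 2 and 3 in this fall was not tested.

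Of 18 non-coding and neighbouring genes of the clusters tested, 6 were higher and 4 lower in FAPs than in ECs, against 46.6% of all genes called (24.6% higher and 22% lower). Hoxa11os, antisense to Hoxa11, had medians of 12 CPM in FAPs (1.4 to 29.1), 5.92 in MPs, 4.13 in pericytes, 4.67 in total tissue and 0.702 in ECs, with a log2 fold change of 3.79 ± 0.49 in FAPs against ECs (adjusted p = 2e-09). Halr1 and Hotairm1, non-coding genes at the 3′ end of HoxA, went the other way: Halr1 ran from 1.52 to 13.4 CPM with a median of 4.49 in ECs and from 0 to 0.94 in FAPs. Hotair, which lies in HoxC beside Hoxc11, had a median of 3.5 CPM in MPs and 0 in ECs, and in MPs it fell from 11.4 to 13.5 CPM to 0 to 1.61 on days 1 to 3 (log2 fold change -4.34 ± 1.19, adjusted p = 0.0138) and rose to 2.32 and 24.3 at day 10 (4.21 ± 1.25, adjusted p = 0.0374).

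Of 20 Polycomb genes, 3 rose and 7 fell in MPs on days 1 to 3 and 5 rose and none fell at day 10, and 11 fell and none rose in inflammatory cells on days 1 to 3. Of all genes, 39%, 19.3% and 29.6% were called in these comparisons, so the MP counts are near the background. Ezh2, the methyltransferase of dividing cells, rose in MPs from 18.7 to 23.4 CPM to 33.6 to 124.0 (log2 fold change 1.91 ± 0.43, adjusted p = 0.00526), and Ezh1 fell from 100.3 to 194.1 CPM to 11.0 to 30.1 (-2.78 ± 0.39, adjusted p = 0.00037). In FAPs, Cbx7, a chromodomain subunit that reads the Polycomb mark, fell from 18 to 28.9 CPM to 0.784 to 11.3 (-2.67 ± 0.30, adjusted p = 3.18e-07) and was 16.8 to 22.1 CPM at day 10 (2.38 ± 0.31, adjusted p = 4.1e-06). Of 12 Trithorax genes and H3K27 demethylases, 3 rose and 4 fell in MPs on days 1 to 3, against 17.9% of all genes higher and 21% lower.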

How the data were processed

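RNA was measured by stranded mRNA sequencing, per the labels' protocols. The submitters' processing notes name bcl2fastq, Bowtie, STAR and the mm10 build; the read counter, its annotation and its strand option were not given in the sources used here. As deposited by the authors, values are raw counts per gene symbol. Rows that name no gene were left out of library totals: reads with no feature were 3.09 to 57.0% and ambiguous reads 0.245 to 1.78%. Whether libraries of a group are separate animals is not stated, and p-values then reflect spread between libraries, which may be technical. Every one of 169 pairs of libraries of the same group differed by more than counting noise, with a lowest chi-square per gene of 2.67. The codes of 14 libraries name another day than their label, the codes of 81 hold R52, whose meaning is not given, and 2 EC day 5 columns give their group only.

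CPM used each library's gene count total. Tests used edgeR 4.0.16 (quasi-likelihood, TMM scaling, its filter on low counts) in R 4.3.3 with Benjamini-Hochberg adjustment over all genes, and the standard error is the log2 fold change divided by the square root of F. Time and genotype fits ran within 1 population, the genotype fits over matched days. DESeq2 1.42.0, RLE scaling, no filter, replicate and preparation blocks, an R52 term and left-out libraries were alternatives. Scripts were tested on simulated data. Genes were matched to GENCODE M21 (GRCm38), which held 23384 of the 24421 symbols, and promoters came from RefSeq. The rule for naming genes was a median of 5 CPM or more in a wild-type population, or being among the most changed called genes at that level. Some genes below that level were also named, such as Hoxa13, Hoxd10, Hoxd11 and, in inflammatory cells, Hoxb9. The Hox genes and lists were chosen with earlier results of these data known.

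Same-numbered replicates did not deviate together: their median correlation was 0.0115 over 3244 pairs, against -0.00496 over 7913 pairs with different numbers. Libraries that share a preparation code did: their median correlation was 0.257 over 105 pairs, 79 of them over 0.1, against -0.00084 over 8663 pairs with different codes. The tests as reported have no term for the code. It was a block in an alternative on 73 of the 86 libraries, those whose code occurs in more than 1 population.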

Additional observations from a re-analysis of the deposited data

Results flagged for a closer look

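In 9 groups of 4 to 10 libraries, 6 Hox measures were examined, and 8 of the 54 group measures had 1 library far from the rest; chance flags about 1 in 20 groups. The wild-type EC day 3 library 5 had 42.8% of its Hox counts from paralogue groups 9 to 13, with the next library at 14.7%, and 28.5 CPM of summed HoxC, with the next at 5.20. The inflammatory day 1 library 3 had 28.5 CPM of summed Hox genes (next 8.15), 13.8 of HoxA (next 1.92) and 13.2 of HoxB (next 4.197). The inflammatory day 2 library 2 had a share of groups 9 to 13 of 29.7% (next 13.1%) and 1.33 CPM of HoxC (next 0.591), and the inflammatory day 2 library 1 had 1.67 CPM of HoxD (next 0.498).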

How the results depend on the processing

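Counts of called Hox genes moved beyond 1.5 times under these settings. With the preparation code as a block, in a fit that keeps 73 of the 86 libraries, so that block and library set cannot be told apart, MPs against pericytes gave 5 and inflammatory cells 32, against 11 and 15; with the compared populations alone MPs against pericytes gave 4; DESeq2 and population and day as added terms each gave 31 for inflammatory cells. DESeq2 gave 5 for FAPs at day 10, 0 for inflammatory cells on days 1 to 3, 2 for CCR2KO FAPs and 1 for CCR2KO MPs. An R52 term gave 12 for MPs at day 10, 3 for inflammatory cells on days 1 to 3 and 0 for ECs at day 10. The EC day 10 call was also lost, leaving 0, without the libraries closest to another population and without those whose code names another day. Without undamaged FAP libraries 2 and 3, chosen after seeing the data, FAPs had 1 call on days 1 to 3 and 4 at day 10, and Hoxc4 on days 1 to 3 turned to 0.068 (adjusted p = 0.982). The causes were not tested. RLE scaling moved no count past 1.5 times.

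The replicate number does not pair the libraries. With it as a block, the calls were 14, 30, 12, 28, 13, 25 and 15 for FAPs against MPs, ECs and pericytes, MPs against ECs and pericytes, ECs against pericytes, and inflammatory cells. Over time the block gave 10 and 2 in FAPs, 8 and 6 in MPs, 3 and 0 in ECs, 0 and 0 in pericytes, 0 in inflammatory cells and 19 and 15 in total tissue, and it gave 0 in each genotype comparison.

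Leaving out each library in turn gave 12 to 15 calls for FAPs against MPs, 29 to 30 against ECs and 7 to 11 against pericytes, 28 to 30 for MPs against ECs, 5 to 12 for MPs against pericytes, 19 to 25 for ECs against pericytes and 15 to 15 for inflammatory cells, of which only inflammatory libraries were left out. Over time it gave 9 to 16 and 1 to 4 in FAPs, 8 to 13 and 2 to 10 in MPs, 2 to 9 and 0 to 1 in ECs, 0 to 6 and 0 to 5 in pericytes, 0 to 4 in inflammatory cells and 11 to 21 and 10 to 16 in total tissue. Between genotypes it gave 0 to 1 in FAPs and 0 to 0 in ECs and MPs. For MPs and for ECs against pericytes the low value was without the pericyte day 3 library 2. For pericytes over time the high values were without the same library. These fits leave day 3 to the shallow library 1, which has 0 counts of every Hox gene but Hoxa10. They cannot show whether the results depend on library 2. For MPs at day 10 the low value was without day 10 library 2, and for total tissue on days 1 to 3 without undamaged library 2. For inflammatory cells on days 1 to 3 the highest was without day 1 library 3. No call was left there without either undamaged library, and 2 were called without day 3 library 1. For ECs on days 1 to 3 the low value was without undamaged library 1, 3 or 4 or day 1 library 2, and the high value without day 3 library 2. For FAPs at day 10 the low and high values were without day 10 library 3 and library 2. For CCR2KO FAPs the 1 call came without wild-type day 6 library 3 or day 14 library 2, or CCR2KO day 3 library 3 or day 14 library 1. Depth limits the low genes: 28 Hox counts were the fewest in a library. Over the named genes, 1056 of the other settings kept the call and direction, 33 lost the call and 1 turned sign; left-out libraries gave 3199, 55 and 0. Groups of 1 library were not left out where no mean would remain.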
